A study of Saccharomyces cerevisiae with 14 samples.

Results

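The 38 transcripts described here encode Gcn4, the transcriptional activator of amino acid biosynthesis in budding yeast, and 37 enzymes that make histidine, lysine, the branched-chain amino acids, the aromatic amino acids, threonine, serine and asparagine. They were chosen by gene name, as a list of transcript identifiers, from the 6612 transcripts in each deposited table. Genes of arginine and sulfur amino acid biosynthesis were not part of the list. The rule itself uses names and no measured value.

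RNA of 2 *Saccharomyces cerevisiae* strains was sequenced in 14 libraries. The *ARP8* wild-type strain, yCFK51, is *MAT a* with *his3delta1*, *leu2delta0*, *met15delta0* and *ura3delta0*. The *arp8-AA* strain, yPB4, is *MAT a* with *his3delta1*, *leu2delta0* and *ura3delta0*, and its *ARP8* gene carries the substitutions S65A and S233A, which remove a pair of serines that the study describes as targets of the Dbf4-dependent kinase. Arp8 is a subunit of the chromatin remodeler INO80. The question put to these libraries was whether the loss of these phosphorylation sites alters transcription. Asynchronous cultures in rich YPAD medium gave 3 replicates per genotype. In a separate experiment, cells arrested with alpha factor were released. They were collected after 10 min, in G1, and after 20 min, in early S phase, with 2 replicates per genotype and time. The study's methods name YPD, not YPAD, as the medium of the arrest and release. Each genotype was represented by 1 strain, so a difference between strains and a difference due to the *ARP8* allele cannot be told apart. Both strains carry the partial deletion *his3delta1*, so the *HIS3* reads come from whatever remains of that gene and its per-length value is not a level of the intact transcript.

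When amino acids are scarce, uncharged tRNA activates the kinase Gcn2, and translation of the *GCN4* mRNA rises through its upstream open reading frames. Gcn4 protein then binds the promoters of biosynthetic genes in most amino acid pathways, a response called general amino acid control. Pathway-specific activators, such as Leu3 for the branched-chain genes and Lys14 for the lysine genes, add control by pathway intermediates. Because Gcn4 is controlled largely in translation and protein stability, the *GCN4* mRNA level is not a measure of its activity. These libraries hold mRNA, not protein or flux.

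The promoter sequences of the members show which of them carry the Gcn4 letters. A window from 250 bases before to 50 bases after the annotated coding start was read from the R64 genome for 6001 genes and searched on both strands. The letters TGACTC occurred in 23 of the 38 member windows (60.5%) and in 7.98% of all windows. The longer form TGACTCA, which contains the shorter one, occurred in 15 members (39.5%) against 2.73% of all windows. All 4 histidine genes, both serine genes and *ASN1* held TGACTC, as did 6 of 10 branched-chain, 3 of 7 lysine, 4 of 9 aromatic and 3 of 4 aspartate-family genes. The *GCN4* window itself held none. CGGNNCCG, the core of the Leu3 site, occurred in *LEU1*, *ILV3* and *BAT1* and in 0.9% of all windows. TCCNNNGGA, the Lys14 letters, occurred in *LYS1*, *LYS9*, *LYS12* and *LEU9* and in 3.4% of all windows. These are letter matches and not measured binding sites.

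The following windows of the sense strand belong to the members to which the results below return, with the matched letters in capitals. They are *ILV3*, the one member called between genotypes, the histidine genes *HIS4* and *HIS5*, and *THR4*, high in single libraries. Shown too are 3 of the 7 lysine genes that moved with the replicate, those with Lys14 letters. *LYS1* and *LYS12* also hold TGACTC, in windows not printed here. GAGTCA in capitals is TGACTC read on the other strand. Positions are those of the R64 genome.
ILV3, Gcn4 letters, chrX:466325-466354, minus strand: tcctctccagaTGACTCAgtaatatagtag
ILV3, Leu3 core, chrX:466368-466397, minus strand: ttcgctgcgagCGGAACCGggcctgaaaaa
LYS9, Lys14 letters, chrXIV:715594-715623, minus strand: gaatcgaaatTCCGTTGGAaaaattcgctt
LYS9, Lys14 letters, chrXIV:715532-715561, minus strand: attgagaattTCCAATGGAattatcagcaa
LYS12, Lys14 letters, chrIX:187795-187824, minus strand: ttcactttttTCCCGTGGAaaaatattctt
LYS1, Lys14 letters, chrIX:420913-420942, minus strand: atttttttttTCCAGCGGAatttggaattc
HIS4, Gcn4 letters, chrIII:68514-68543, minus strand: cccatgcacagTGACTCAcgtttttttatc
HIS5, Gcn4 letters, chrIX:142715-142744, plus strand: cttggatctgtTGACTCActtcaattgatg
THR4, Gcn4 letters, chrIII:216506-216535, plus strand: gtgcgaacaaaaGAGTCAttacaacgagga

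The libraries held between 1864995 and 6016858 estimated counts. The a-cell genes were expressed (*MFA1* at 118 to 1740 TPM, a level corrected for transcript length), and the alpha-cell pheromone gene *MF(ALPHA)1* had at most 2 counts in a library. Another alpha-cell gene, *STE3*, was low but not absent, with 2 to 55 counts and at most 6.23 TPM. *LEU2* and *URA3* had 0 counts in all 14 libraries. *MET17*, which is the gene named *met15* in the labels, also had 0 counts in all of them, although the *arp8-AA* label does not list its deletion. The 8 core histone genes had a median log2 change from 10 to 20 min of 1.18 with *ARP8* and of 1.52 with *arp8-AA*.

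In TPM, in which counts are divided by transcript length and scaled to the same total in each library so that transcripts can be compared, the highest and the lowest member, *HOM2* and *HOM3*, both belonged to the pathway from aspartate. *GCN4* (YEL009C_mRNA) had a median of 250.5 TPM over the 14 libraries, above 93.1% of transcripts. *HOM2* (YDR158W_mRNA), aspartic semialdehyde dehydrogenase, had the highest median over all libraries, 562 TPM, close to *ASN1* (YPR145W_mRNA), an asparagine synthetase, with 561 TPM. Their ranges, 473.5 to 694 and 394 to 784 TPM, overlapped. Their order differed between the experiments, with medians of 525 TPM for *HOM2* and 442 TPM for *ASN1* in asynchronous cells and 595 and 714 TPM after release. *HOM3* (YER052C_mRNA), the aspartate kinase of the same pathway, was the least abundant with 5.73 TPM. The homoserine kinase gene *THR1* (YHR025W_mRNA) had 10.9 TPM and the threonine synthase gene *THR4* (YCR053W_mRNA) 19.5 TPM. The 2 serine genes differed too, with the phosphoserine aminotransferase gene *SER1* (YOR184W_mRNA) at 433 TPM and the phosphoglycerate dehydrogenase gene *SER33* (YIL074C_mRNA) at 46.6 TPM.

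Among the histidine genes, *HIS1* (YER055C_mRNA), which encodes the enzyme of the first step, had a median of 344 TPM. The multifunctional gene *HIS4* (YCL030C_mRNA) had 124 TPM, the aminotransferase gene *HIS5* (YIL116W_mRNA) 87.8 TPM and *HIS3* (YOR202W_mRNA), partly deleted, 38.7 TPM. In the lysine pathway the first enzyme, homocitrate synthase, was encoded by a pair of low transcripts. *LYS20* (YDL182W_mRNA) had 7.69 TPM and *LYS21* (YDL131W_mRNA) 12.3 TPM. Their coding sequences are identical at 88.1% of aligned bases, and 46.5% of the 31-base words of *LYS20* also occur in *LYS21*, so the division of reads between them by the counting program is uncertain. The homoaconitase gene *LYS4* (YDR234W_mRNA) had 83.8 TPM, the homoisocitrate dehydrogenase gene *LYS12* (YIL094C_mRNA) 117 TPM and the aminoadipate reductase gene *LYS2* (YBR115C_mRNA) 58.1 TPM. Of the last enzymes of that pathway, saccharopine reductase, *LYS9* (YNR050C_mRNA), had 194 TPM and saccharopine dehydrogenase, *LYS1* (YIR034C_mRNA), 9.51 TPM.

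Of the branched-chain genes, the cytosolic aminotransferase gene *BAT2* (YJR148W_mRNA) had the highest median over all libraries, 445 TPM, and its mitochondrial counterpart *BAT1* (YHR208W_mRNA) had 188 TPM. In asynchronous cells *BAT2* had 226 TPM and *BAT1* 241 TPM, with overlapping ranges, and after release 536 and 163 TPM. Acetolactate synthase had 297 TPM for its catalytic subunit *ILV2* (YMR108W_mRNA) and 8.44 TPM for its regulatory subunit *ILV6* (YCL009C_mRNA). The next enzymes, the reductoisomerase *ILV5* (YLR355C_mRNA) and the dihydroxyacid dehydratase *ILV3* (YJR016C_mRNA), had 98.4 and 197 TPM. Threonine deaminase, *ILV1* (YER086W_mRNA), had 100.5 TPM. In the leucine branch, the isomerase gene *LEU1* (YGL009C_mRNA) had 270.2 TPM, and the isopropylmalate synthase genes *LEU4* (YNL104C_mRNA) and *LEU9* (YOR108W_mRNA) had 59.5 and 44.6 TPM.

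The aromatic genes included *ARO2* (YGL148W_mRNA), chorismate synthase, at 385 TPM, and the DAHP synthase genes *ARO4* (YBR249C_mRNA) and *ARO3* (YDR035W_mRNA) at 236 and 164 TPM. The multifunctional shikimate pathway gene *ARO1* (YDR127W_mRNA) had 103.5 TPM and the aminotransferase gene *ARO8* (YGL202W_mRNA) 146 TPM. The tryptophan genes were lower, with medians of 75.1 TPM for *TRP3* (YKL211C_mRNA), 55.8 TPM for *TRP5* (YGL026C_mRNA), tryptophan synthase, 42.7 TPM for *TRP4* (YDR354W_mRNA) and 21.3 TPM for *TRP2* (YER090W_mRNA), anthranilate synthase.

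**Figure D1:**
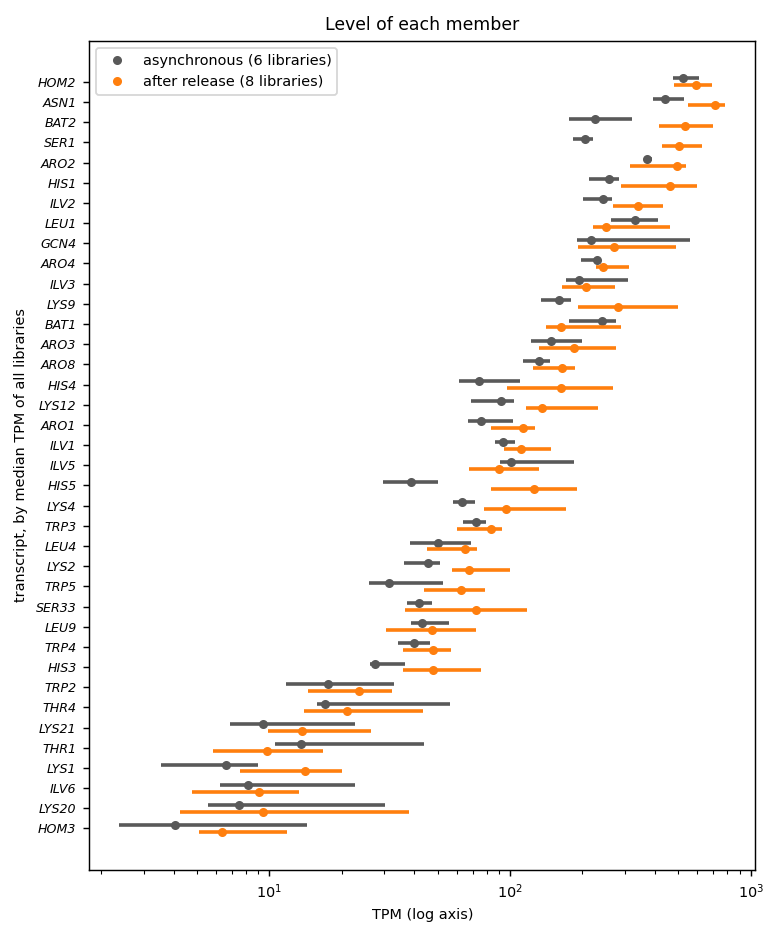
Level of each member in TPM on a log axis, as the range (line) and median (point) over the 6 asynchronous libraries (grey) and the 8 libraries after release (orange), ordered by the median of all libraries. Medians over all libraries run from 562 TPM for HOM2 to 5.73 TPM for HOM3, and the orange ranges of HIS5, BAT2 and SER1 lie above the grey ones.

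The members together took 0.446% to 0.552% of TPM in the asynchronous libraries and 0.596% to 0.789% in those after release. The 8 libraries after release lay above all 6 asynchronous ones for 10 of the 38 members, where 22.4% of 5183 transcripts did so. None lay below, against 2.72% of transcripts. The 10 were *HIS1*, *HIS5*, *LYS2*, *LYS4*, *LYS9*, *LYS12*, *ILV2*, *BAT2*, *SER1* and *ASN1*, and the share of the members is close to that of all transcripts. The ratio of the medians was 3.24 for *HIS5*, 2.44 for *SER1* and 2.37 for *BAT2*, beside a median ratio of 1.34 over the members and 1.30 over all transcripts. The 2 experiments were done separately, and the media named for them differ. The arrest and release, the stage, the medium and the experiment therefore cannot be told apart. In bulk RNA, a different share of cells in a state and a different amount of RNA per cell cannot be told apart either.

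In asynchronous cells, 1 of the 38 members was called between the genotypes. It was *ILV3*, on chromosome X from 464451 to 466208, which encodes the dihydroxyacid dehydratase of isoleucine and valine synthesis. A call is an adjusted p under 0.05 in edgeR's quasi-likelihood test over all transcripts, blocked on the replicate number. Of the transcripts tested, 0.942% of 5204 were called. The counts of *ILV3*, scaled to the library size (CPM), were 984, 676 and 766 in the *ARP8* replicates and 532, 558 and 551 in the *arp8-AA* replicates. Every *ARP8* library was above every *arp8-AA* library. The mean was 808 ± 158 CPM (SD, n = 3) in *ARP8* and 547 ± 13.4 CPM (SD, n = 3) in *arp8-AA*. The log2 fold change was -0.55 (SE 0.11, edgeR adjusted p = 0.0432), lower in 3 of 3 pairs. DESeq2 also called *ILV3* and no other member. Without the first *ARP8* replicate, the highest of the 6, the log2 fold change was -0.38 (edgeR adjusted p = 0.0319). Without the replicate block *ILV3* was not called (edgeR adjusted p = 0.356), nor without *ARP8* replicate 3 (0.0829) or *arp8-AA* replicate 3 (0.111). With 3 libraries against 3, an exact permutation test of a single value that ignores the pairs cannot go below p = 0.1, and within pairs its floor is higher. In the same comparison 3 of 8 core histone genes were called, all lower in *arp8-AA*, beside 0.942% of all transcripts. All 8 had a log2 fold change below 0 (median -0.37), and their part in the *ILV3* value was not tested.

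**Figure D2:**
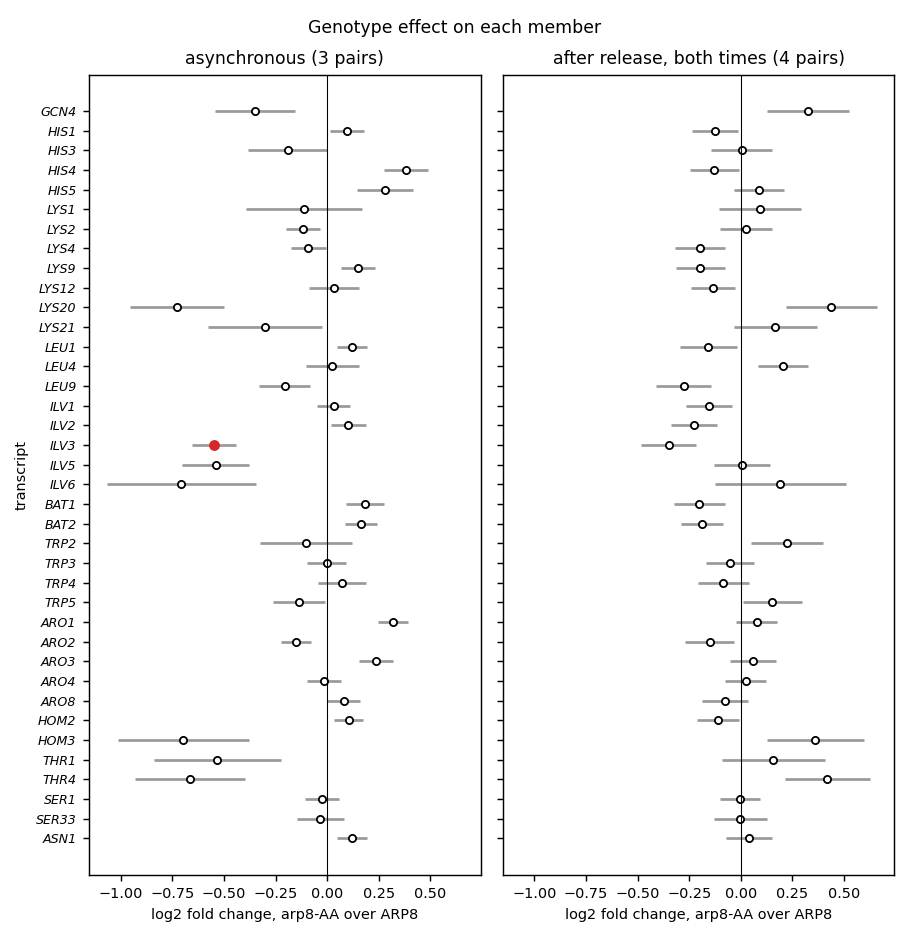
Log2 fold change of arp8-AA over ARP8 for each member, with its standard error, in asynchronous cells (left) and over both times after release (right), where a filled red point is a call at adjusted p under 0.05. ILV3 is the only filled point, at -0.55 on the left, and stood at -0.35 without a call on the right.

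The other members gave no call in asynchronous cells. Their log2 fold changes were between -0.73 for *LYS20* and 0.38 for *HIS4*, and the median over the 38 members was -0.020, beside -0.0031 over all transcripts tested. An unadjusted p under 0.05 was found for 7 members (18.4%) and for 15.9% of all transcripts. *ARO1* had 634, 659 and 695 CPM in *ARP8* and 829, 772 and 882 CPM in *arp8-AA* (log2 fold change 0.32, SE 0.07, edgeR adjusted p = 0.076). The genotypes did not overlap for *ARO1*, and it was called only when transcripts with low counts were kept in the test. *HIS4* had 274, 320.5 and 310.2 CPM in *ARP8* and 451, 370 and 361 CPM in *arp8-AA* (log2 fold change 0.38, SE 0.11, edgeR adjusted p = 0.134). Again the groups did not overlap.

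*ILV5*, the enzyme step before *ILV3*, had 376.5, 225 and 234 CPM in *ARP8* and 170.2, 207 and 186 CPM in *arp8-AA*. Its log2 fold change was -0.54 (SE 0.16, edgeR adjusted p = 0.154). *HIS3* had 36.4, 28.2 and 28.9 CPM in *ARP8* and 25.3, 32.6 and 24.1 CPM in *arp8-AA*, and the groups overlapped (log2 fold change -0.19, SE 0.19, edgeR adjusted p = 0.680). By pathway, the median log2 fold change was 0.19 for the histidine genes, -0.11 for the lysine genes, 0.03 for the branched-chain genes, -0.0015 for the aromatic genes and -0.60 for the aspartate family. In 3 of the 4 aspartate-family genes 1 *ARP8* library was high.

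Of 13 further genes of the same pathways that were tested, 0 were called in asynchronous cells with edgeR, with 1 at an unadjusted p under 0.05. Of 10 regulators, among them *GCN2*, *LEU3* and *LYS14*, 0 passed, and the unadjusted p was under 0.05 for 0. DESeq2 called 0 in either list. *ARG1* of the arginine pathway, which is also under Gcn4, rose in *arp8-AA* (log2 fold change 1.16, edgeR adjusted p = 0.00478), and DESeq2 gave no adjusted p for it.

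After release, no member was called between the genotypes at either time. At 10 min, 0.0% of the 5453 transcripts tested were called, and 0 of 38 members had an unadjusted p under 0.05. The member medians of the log2 fold change were 0.03 at 10 min and -0.06 at 20 min. At 20 min, 0.0183% of transcripts were called, and 4 members had an unadjusted p under 0.05 (10.5%, beside 7.15% of transcripts). Over both times, 0.0917% of transcripts were called, 0 members were called and 1, *ILV3*, had an unadjusted p under 0.05. DESeq2 called 0 members in each of these 3 comparisons. With 2 libraries against 2, the smallest exact permutation p is 0.333 when the pairs are ignored, and higher within pairs.

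*ILV3* had 654 and 519 CPM in *ARP8* and 453 and 460 CPM in *arp8-AA* at 10 min. At 20 min it had 638 and 665 CPM in *ARP8* and 430.0 and 608 CPM in *arp8-AA*. The groups did not overlap at either time, and *arp8-AA* was below *ARP8* in 4 of 4 pairs. Of the 38 members, 4 were lower in every pair, *ILV3* among them, and 1 was higher. The share of all transcripts that did so was not counted. The log2 fold change over both times was -0.35 (SE 0.13, edgeR unadjusted p = 0.0244, adjusted p = 0.701), which is no call.

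At 10 min *ILV3* had the lowest p, followed by *LEU9*, with a log2 fold change of -0.35 (SE 0.19), and *LYS9*, with -0.30 (SE 0.17). At 20 min the lowest p were those of *BAT1*, with -0.43 (SE 0.17), *ILV2*, with -0.38 (SE 0.16), and *HOM3*, with 0.75 (SE 0.33), all at an edgeR adjusted p of 0.694. Over both times *LEU9*, with -0.28 (SE 0.13), and *THR4*, with 0.42 (SE 0.21), followed *ILV3*. *HIS3* had a log2 fold change of 0.33 (SE 0.20) at 10 min and -0.33 (SE 0.21) at 20 min.

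A genotype effect that differs between the times was called for 0 members, and for 0.0% of all transcripts. In that edgeR test 1 member, *HIS3*, had an unadjusted p under 0.05, and DESeq2 called 0 members. *HIS3* had 41.5 and 41.5 CPM in *ARP8* and 42.5 and 62.8 CPM in *arp8-AA* at 10 min, and 35.9 and 43.8 CPM against 27.4 and 36.4 CPM at 20 min. The difference of its log2 fold changes was -0.66 (SE 0.29, edgeR adjusted p = 0.962). For *HIS4* it was -0.48 (SE 0.24) and for *BAT1* -0.46 (SE 0.24), both with the same adjusted p.

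Between 10 and 20 min, no member was called in either genotype, where 0.11% of transcripts were called in *ARP8* and 0.0183% in *arp8-AA*. An unadjusted p under 0.05 was found for 6 members with *ARP8* and for 9 with *arp8-AA* (15.8% and 23.7%), beside 10.1% and 9.98% of all transcripts, and DESeq2 called 0 in both. All 4 histidine members and both serine members had lower fitted values at 20 min in both genotypes. Other genes of these pathways did not all fall. With *ARP8* and *arp8-AA*, *SER3* had log2 fold changes of -0.39 and -0.46 and *SER2* of 0.21 and 0.04. *HIS2*, *HIS6* and *HIS7* differed in sign between the genotypes, at -0.14 to 0.04. In *arp8-AA* cells the log2 fold changes were -0.65 for *HIS4*, -0.72 for *HIS3*, -0.53 for *HIS5* and -0.37 for *HIS1*, and the lowest edgeR adjusted p of the 38 was 0.255. In *ARP8* cells *HIS5* had the lowest p, with 222 and 241 CPM at 10 min and 164 and 153 CPM at 20 min (log2 fold change -0.56, SE 0.17, edgeR adjusted p = 0.278).

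Single libraries stood apart in these genes. With 0.5 added to each CPM, 8 members in the first asynchronous *ARP8* replicate were more than 2-fold above the median of the other 5 asynchronous libraries (21.1% of the members, against 4.94% of all transcripts tested). They were *GCN4*, *HOM3*, *THR1*, *THR4*, *LYS20*, *LYS21*, *ILV6* and *TRP2*. In the second *arp8-AA* replicate at 20 min, 5 members were (13.2%, against 2.79%), namely *GCN4*, *THR4*, *LYS20*, *LYS21* and *LYS9*. With nothing added, *ILV6* (2.05-fold) and *HOM3* (2.03-fold) passed there as well, which makes 7. In the second *ARP8* replicate at 20 min, 4 members passed either way, *LYS9*, *LYS12*, *LYS20* and *LEU1* (10.5%, against 1.41% of transcripts). Without that library 0 members were called between the genotypes at 20 min. With 0.5 CPM added, the 4 that the first and the second of these libraries share are 50% and 80% of their sets, and with nothing added 6 are shared. Over all transcripts, 74 were shared, 28.8% and 48.7% of the sets. These 2 libraries belong to different genotypes and different experiments. Of the 8 high members in the first library, 7 are among the 8 members of lowest TPM, and the other is *GCN4*.

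*GCN4*, on chromosome V from 138918 to 139763, had 762, 276 and 274 CPM in asynchronous *ARP8* cells and 350, 284 and 290 CPM in *arp8-AA* cells. One library was high and the other 5 lay between 274 and 350 CPM. After release it had 304 and 262 CPM at 10 min and 296 and 268 CPM at 20 min in *ARP8*, and 316 and 263 CPM at 10 min and 284 and 594 CPM at 20 min in *arp8-AA*. Here too 1 library was high, and the other 7 lay between 262 and 316 CPM. The asynchronous log2 fold change of -0.35 (SE 0.19, edgeR adjusted p = 0.408) was 0.06 without the high library. At 20 min it was 0.62 (SE 0.28, edgeR adjusted p = 0.694) and -0.09 without the high library. At 10 min the log2 fold change was 0.03 (SE 0.28).

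**Figure D3:**
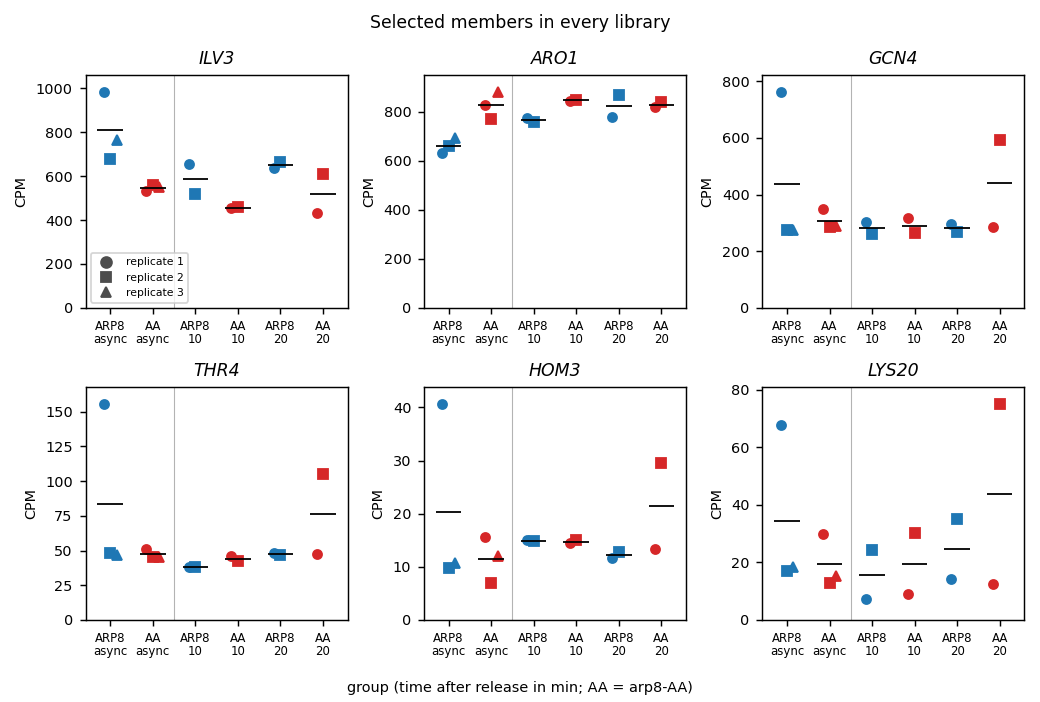
CPM of 6 members in every library by group, with replicates as different symbols, ARP8 in blue, arp8-AA in red and the group mean as a black line. GCN4, THR4, HOM3 and LYS20 are high in the first asynchronous ARP8 replicate and the second arp8-AA replicate at 20 min, and ILV3 in arp8-AA lies at 532 to 558 CPM in asynchronous cells.

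Genes of the aspartate branch were high in the same libraries. *THR4* had 156, 48.5 and 46.6 CPM in asynchronous *ARP8* cells and 51.0, 45.4 and 45.3 CPM in *arp8-AA* cells. At 20 min it had 48.3 and 46.7 CPM in *ARP8* and 47.6 and 106 CPM in *arp8-AA*. *HOM3* had 40.7, 9.70 and 10.6 CPM in asynchronous *ARP8* cells and 15.6, 6.91 and 12.0 CPM in *arp8-AA* cells, and 13.4 and 29.5 CPM in the *arp8-AA* libraries at 20 min. *THR1* was 3.37-fold above the median of the other libraries in the first and 1.92-fold in the second. *HOM2*, of the same branch, was at 0.984 and 0.955 of that median.

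Of the 8 members more than 2-fold above in the first asynchronous *ARP8* replicate, 4 held TGACTC, where 23 of the 38 members do. They were *ILV6*, *THR1*, *THR4* and *TRP2*. Of the 5 in the second *arp8-AA* replicate at 20 min, *THR4* held it, and *ILV6* passed too with nothing added to the CPM. Members with TGACTC lay on both sides of the median of the others in these libraries. *HIS4* was at 0.758 and 0.639 of it, *HIS5* at 0.719 and 0.674, *HIS1* at 0.810 and 0.664 and *ASN1* at 0.839 and 0.937. *ILV5* was at 1.82 and 1.57, *ILV3* at 1.76 and 1.17 and *LEU4* at 1.60 and 1.27. Without the second *arp8-AA* replicate at 20 min the log2 fold change of *HOM3* between the genotypes at 20 min was 0.16. Leaving out the first *arp8-AA* replicate at 20 min leaves that group with the high library alone. The log2 fold changes between 10 and 20 min in *arp8-AA* cells were then 1.14 for *GCN4*, 1.28 for *THR4* and 1.37 for *LYS20*. These genes were already listed above as high in that library, so the values add no separate evidence. In that fit the lone library is assumed to vary like the other groups.

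**Figure D4:**
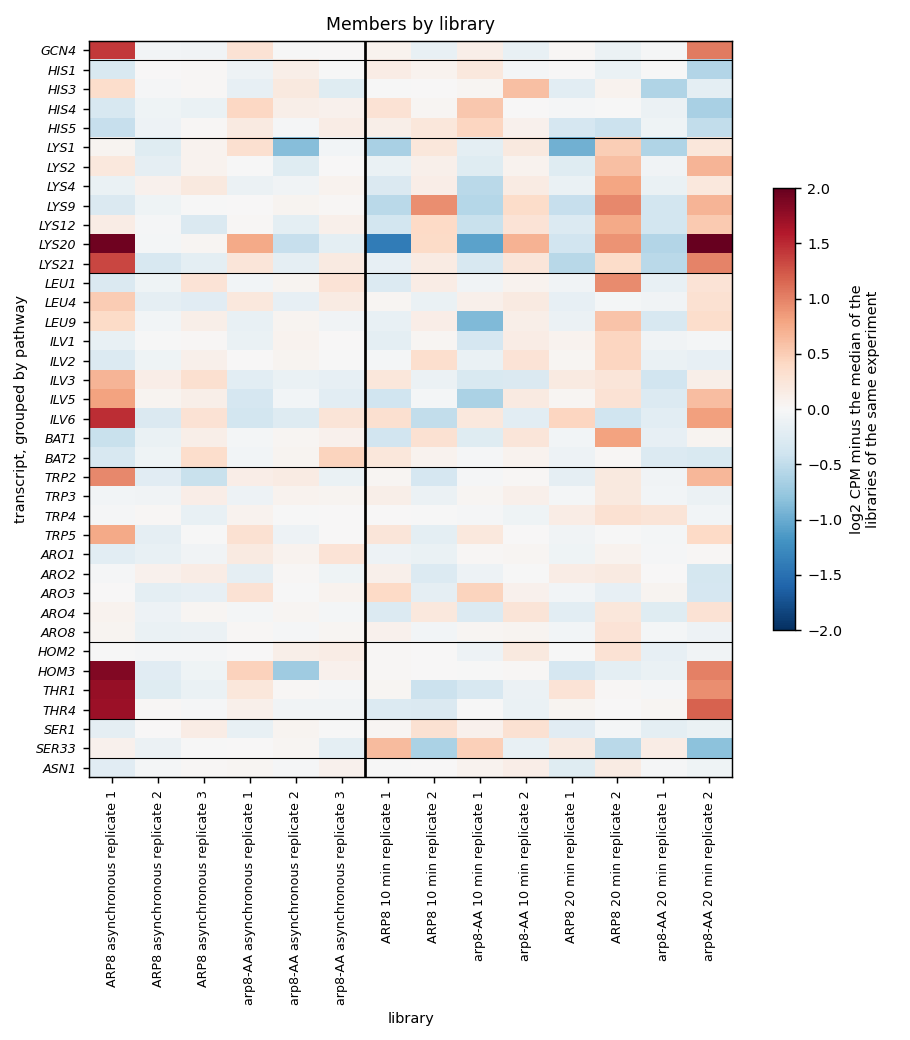
Each cell is the log2 CPM of a member (row, grouped by pathway) in a library (column), minus the median of the libraries of the same experiment, with the asynchronous libraries left of the black line. The first ARP8 column and the last arp8-AA column are red for GCN4, LYS20, LYS21, HOM3, THR1 and THR4, and the lysine rows are redder in replicate 2 than in replicate 1 after release.

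Libraries after release differed in these genes by their replicate number. The comparison of replicate 2 with replicate 1, over 4 pairs of libraries, was made after the values had been seen. All 4 pairs set the same replicate number against the same other, so they are not independent repeats of that difference. Its p-values do not measure how the difference would vary between further replicates. It called 14 of the 38 members, 12 higher and 2 lower, where 22.1% of transcripts were called. DESeq2 called 13. All 7 lysine members were among the 14 and rose, with a median log2 change of 0.85 beside 0.01 over all transcripts. *LYS5*, a gene of the pathway that is no member, was not called (log2 change 0.03, SE 0.26). For each of the 7, all 4 libraries of replicate 2 lay above all 4 of replicate 1, as for 11.7% of all transcripts.

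*LYS9* had 349 and 341 CPM at 10 min and 367 and 393 CPM at 20 min in replicate 1 of *ARP8* and *arp8-AA*. In replicate 2 it had 962 and 655 CPM at 10 min and 983 and 809 CPM at 20 min. The log2 change was 1.22 (SE 0.12, edgeR adjusted p = 0.000109). *LYS20* rose from 7.11 to 14.3 CPM in replicate 1 to between 24.4 and 75.1 CPM in replicate 2 (log2 change 1.86, SE 0.22, edgeR adjusted p = 0.000368). *LYS12* lay between 162 and 181 CPM in replicate 1 and between 266 and 371 CPM in replicate 2, a log2 change of 0.85. The log2 change was 0.88 for *LYS1*, 0.84 for *LYS21*, 0.60 for *LYS4* and 0.53 for *LYS2*. The letters of Lys14 stood in the windows of *LYS1*, *LYS9* and *LYS12*, and not in those of the other 4. TGACTC stood in those of *LYS1*, *LYS2* and *LYS12*. The *LYS14* transcript itself was not called between the replicates (log2 change -0.02, SE 0.14).

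**Figure D5:**
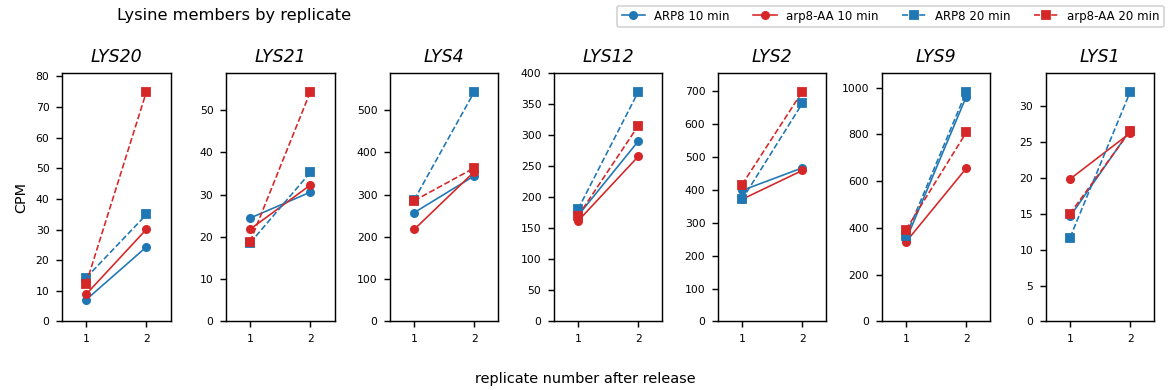
CPM of the 7 lysine members in replicate 1 and replicate 2 after release, with a line joining libraries of the same genotype and time (ARP8 blue, arp8-AA red, 10 min solid with circles, 20 min dashed with squares). All 28 lines go up, and those of LYS9 run from 341 to 393 CPM in replicate 1 to 655 to 983 CPM in replicate 2.

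Beside the lysine members, *LEU9* (log2 change 0.66), *ILV5* (0.58), *BAT1* (0.56), *LEU1* (0.50) and *ARO4* (0.49) were higher in replicate 2, and *SER33* and *ARO3* were lower. *SER33* lay between 159 and 222 CPM in replicate 1 and between 80.6 and 128.5 CPM in replicate 2 (log2 change -0.90, SE 0.13, edgeR adjusted p = 0.00121). Its relative *SER3*, with 82.4% identical bases, also fell (-0.65, edgeR adjusted p = 0.00705). None of the histidine or aspartate-family members, nor *GCN4*, *SER1* or *ASN1*, was called between the replicates.

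Other genes moved with the replicate too. All 8 core histone genes were called higher in replicate 2 (median log2 change 1.57) and all 4 a-cell genes lower (-1.69). Of 9 tested sulfur genes, 7 were called lower and 8 had a log2 change below 0 (median -1.09 over the 9). The part of these differences in the lysine values was not tested. Without the second *arp8-AA* replicate at 20 min, which stood apart, 9 members were called, among them 5 of the 7 lysine genes, and 15.5% of transcripts were.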

How the data were processed

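Total RNA was depleted of ribosomal RNA and sequenced from directional libraries. The authors made the deposited estimated counts and TPM with kallisto 0.48, run with its defaults against transcripts of R64, annotation version 108. kallisto divides reads shared by similar transcripts, and its defaults ignore strand. The deposited estimated counts are not normalized. Depth lay between 1864995 and 6016858 estimated counts per library.

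Counts were rounded, filtered with filterByExpr (all 38 members passed in both experiments) and scaled by TMM (factors 0.940 to 1.046). CPM are counts scaled to the TMM library size. The two-sided quasi-likelihood test of edgeR 4.0.16 (R 4.3.3) was used with a block for the replicate number. P-values were adjusted by Benjamini-Hochberg across every transcript tested, and asynchronous and synchronised libraries were fitted apart. DESeq2 1.42.0, its size factors, no filter, no block, an adjusted p under 0.1, single times or genotypes, and each library left out were the alternatives. Deviations from group means of libraries with the same number correlated at r of 0.174 to 0.329 (asynchronous) and 0.478 to 0.653 (after release). With different numbers r was -0.299 to 0.18 (asynchronous) and -0.653 to -0.478 (after release). After release each group held 2 libraries, whose deviations are opposite by construction. The last range therefore only repeats the same-number range with its sign turned. The numbers pair the libraries after release. In asynchronous cells the ranges overlap, so these correlations do not establish the pairing there. The script was tested on simulated data. Levels are deposited TPM.

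The members, lists and motifs were chosen with earlier results of these data known. *GCN4*, *HIS3*, called members (at most 8 in a comparison) and the 3 lowest p per genotype comparison were given in full; *ILV5*, *THR1* and members high in single libraries were named after their values were seen. Promoters and 31-base words were read from the R64 reference genome and annotation, in place of the protein identity planned. The labels call replicates biological, with no culture named, so p-values measure the spread between these libraries. Apart from *ARG1*, named after its value was seen, results of the arginine list are not reported here.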

Additional observations from a re-analysis of the deposited data

How the results depend on the processing

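In asynchronous cells the count of members called between genotypes was 1, and it was 3 with no filter on low counts (*ILV3*, *ARO1* and *ILV5*), 2 at an adjusted p under 0.1 and 0 without the replicate block. Leaving out 1 library gave 0 to 1, with 0 without *ARP8* replicate 3 or *arp8-AA* replicate 3. Under the block, leaving out 1 library of a pair removes the pair from the comparison. The block changed no other count between genotypes or times, each being 0 with and without it. Between 10 and 20 min in *arp8-AA* cells, leaving out 1 library leaves a group with a single library, so counts of calls from those fits are not given. Between replicates 2 and 1, leaving out 1 library gave 9 to 12 members in place of 14, with 9 without *arp8-AA* 20 min replicate 2, and the other settings gave 13 to 16. DESeq2 called 35 transcripts in all in asynchronous cells and 1005 between the replicates. For most other settings the share of all transcripts called is not given, so a moved count cannot be read as particular to the members. The *GCN4* log2 fold change turned its direction when single libraries were left out: the range was -0.559 to 0.0618 in asynchronous cells, -0.24 to 0.27 at 10 min and -0.088 to 1.17 at 20 min. *ILV3* was called in 7 of 10 alternatives in asynchronous cells, with edgeR or DESeq2 adjusted p of 0.00283 to 0.356 and log2 fold changes of -0.68 to -0.38. The groups held 2 or 3 libraries. The median standard error over the members was 0.11 in asynchronous cells and 0.17 at 10 min on the log2 scale, so small changes of single members were not detectable. Single members ran from 0.07 (*HOM2*, asynchronous) to 0.45 (*ILV6*, 10 min), and where the standard error was large, larger changes were not detectable either.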
